A study of Homo sapiens with 6 samples.

Results

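This account describes 10 genes of the circadian clock, CLOCK, PER1, PER2, PER3, CRY1, CRY2, NR1D1, NR1D2, BHLHE40 and DBP, in RNA from the T24 line, an established line of human bladder carcinoma whose cell type is labelled epithelial. The genes were chosen by symbol, with earlier results of these data known. All 10 were found among the 37871 Ensembl genes of the count table. The lists of other clock genes used below were also chosen with those results known. Shares of called genes set beside those of all tested genes are therefore descriptions. The study compared 3 libraries of T24 cells given vehicle with 3 libraries given lipopolysaccharide (LPS) plus nigericin. LPS, from the outer membrane of Gram-negative bacteria, is detected through TLR4. Nigericin lets potassium leave the cell and is widely used to trigger the NLRP3 inflammasome. Both groups were the same line in high-glucose DMEM, and the labels name no genetic change. They give no dose, length of treatment or hour of harvest, and do not name the vehicle. No group received LPS or nigericin alone, so the agents cannot be told apart.

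The clock is a feedback loop of transcription. CLOCK and BMAL1 proteins bind E-box sequences and switch on the PER and CRY genes, and the PER and CRY proteins then return to the nucleus and silence CLOCK and BMAL1. A second loop runs through the nuclear receptors REV-ERB alpha and beta, encoded by NR1D1 and NR1D2, which repress BMAL1. BHLHE40 (DEC1) is a repressor that competes for E-boxes, and DBP is an activator at D-boxes and a classical output of the loop. Most cells of the body, urothelium among them, carry this loop, and PER1 and PER2 also respond directly to external signals. The levels of these RNAs change over the day. The labels give no time series, so a change of phase and a change of level cannot be told apart here.

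Each library held 66180407 to 89152224 gene counts, and each member had 82 counts or more in every library. Levels are given in CPM, a gene's share of the library's counts on a common scale that includes edgeR's TMM factors, as mean ± SD over n = 3 libraries. They are shares of a library: fewer copies per cell and a larger pool of other RNA cannot be told apart. Of the epithelial markers, KRT7, KRT8, KRT18 and KRT19 were at 139 to 4016 CPM and all 4 fell after treatment in the TMM-normalized fit, with no overlap between groups, and their part in the results was not tested. EPCAM was at 1.13 to 3.34 CPM, and the E-cadherin gene CDH1 had 0 counts in each library except 6 counts in treated library 3. The leukocyte gene PTPRC had 0 counts except 3 in treated library 2, and the endothelial genes PECAM1 and VWF were at 0.813 CPM or below. The collagen gene COL1A1, a fibroblast marker, was at 4.29 ± 0.630 CPM in vehicle and 3.35 ± 0.365 CPM in treated libraries, above EPCAM in both groups by mean, and was not called (edgeR adjusted p = 0.163). Transcript composition moved with the groups. Across protein-coding genes, each library's deviation from the mean of the 6 correlated with GC content at 0.193 to 0.609 in vehicle and at -0.540 to -0.431 in treated libraries (Spearman, a description across genes). The labels do not tie the libraries to separate cultures, so each p-value reflects only how these libraries vary, which may be technical variation.

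Letters that match the E-box, the kind of sequence through which the loop acts, can be searched for in the promoters. RefSeq promoter windows (GRCh38.p14) of 300 bases, 250 before and 50 after a start, were given for all 10 genes, some with more than 1 start. On either strand the windows were searched for the E-box CACGTG, the E-prime box CACGTT, the D-box as TTATGTAA or TTACGTAA, the REV-ERB and ROR element (RORE), and the cAMP response element TGACGTCA. In the members' windows no match of one motif overlapped a match of another. CACGTG was found in 3 of the 10 genes (PER1, NR1D2 and BHLHE40) and in 8.77% of all 27305 genes with a window (7.26% of 35116 windows). CACGTT was found in 5 (CLOCK, PER2, CRY1, CRY2 and NR1D1) and in 6.44% of genes (5.34% of windows). The following stretches are shown because they hold these boxes in genes that rose, in 1 that fell and in 1 that did not pass the test. Each reads 5′ to 3′ on the gene's strand, with the box in capitals.
PER1: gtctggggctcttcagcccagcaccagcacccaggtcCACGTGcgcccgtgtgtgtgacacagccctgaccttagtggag
PER2: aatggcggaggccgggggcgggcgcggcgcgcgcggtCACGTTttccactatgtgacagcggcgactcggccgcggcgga
CRY1: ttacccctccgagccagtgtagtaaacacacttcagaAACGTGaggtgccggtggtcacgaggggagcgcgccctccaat
NR1D2: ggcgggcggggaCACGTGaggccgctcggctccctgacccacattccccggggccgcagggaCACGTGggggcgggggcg
NR1D1: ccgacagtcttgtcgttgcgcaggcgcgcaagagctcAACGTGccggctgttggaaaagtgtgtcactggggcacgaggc
BHLHE40: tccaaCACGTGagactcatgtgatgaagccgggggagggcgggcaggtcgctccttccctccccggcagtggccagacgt

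The PER1 stretch is chr17:8152535-8152614 on the minus strand, and its E-box begins 173 bases before the start. The PER2 stretch is chr2:238288765-238288844 (minus strand), with the E-prime box 197 bases before the start. That of CRY1 is chr12:107093596-107093675 (minus strand, 89 bases before). NR1D2 has a pair of E-boxes at 155 and 105 bases before a start in chr3:23945954-23946033 (plus strand). The NR1D1 stretch is chr17:40100715-40100794 (minus strand, 168 bases before) and that of BHLHE40 is chr3:4979187-4979266 (plus strand, 245 bases before). TTATGTAA lies 177 bases before a start of PER3 and 194 before one of NR1D2, against 0.886% of all windows, and TTACGTAA lies across the start of PER2, against 0.125%. Neither the REV-ERB element (0.168% of windows) nor the cAMP response element (1.85%) was matched in a member's window, which says only that these letters are not there. DBP had no match to any of these motifs. A match is a description of letters and not a measured binding site.

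After LPS plus nigericin, RNA of the PER and CRY repressor genes rose in the TMM-normalized fit, as did NR1D2 and CLOCK, while BHLHE40 and DBP fell. The CLOCK rise was not seen in a fit with per-library offsets for GC content and transcript length. The PER1 and CRY2 calls were lost when some single libraries were left out. Of the 10 genes, 7 passed the threshold as higher, where 28.9% of all 19170 tested genes did, and 2 as lower, where 26.4% did (edgeR quasi-likelihood test, Benjamini-Hochberg adjusted p under 0.05). NR1D1 did not pass. All tested genes include ones that are not protein-coding, and shares over protein-coding genes were computed only by GC quintile. The median log2 fold change of the 10 was 0.94, against 0.0016 over all tested genes. The treated and vehicle libraries did not overlap for the same 9 genes, 7 higher (35.0% of all tested genes) and 2 lower (32.0%). The members thus moved in both directions, which a median does not show.

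**Figure D1:**
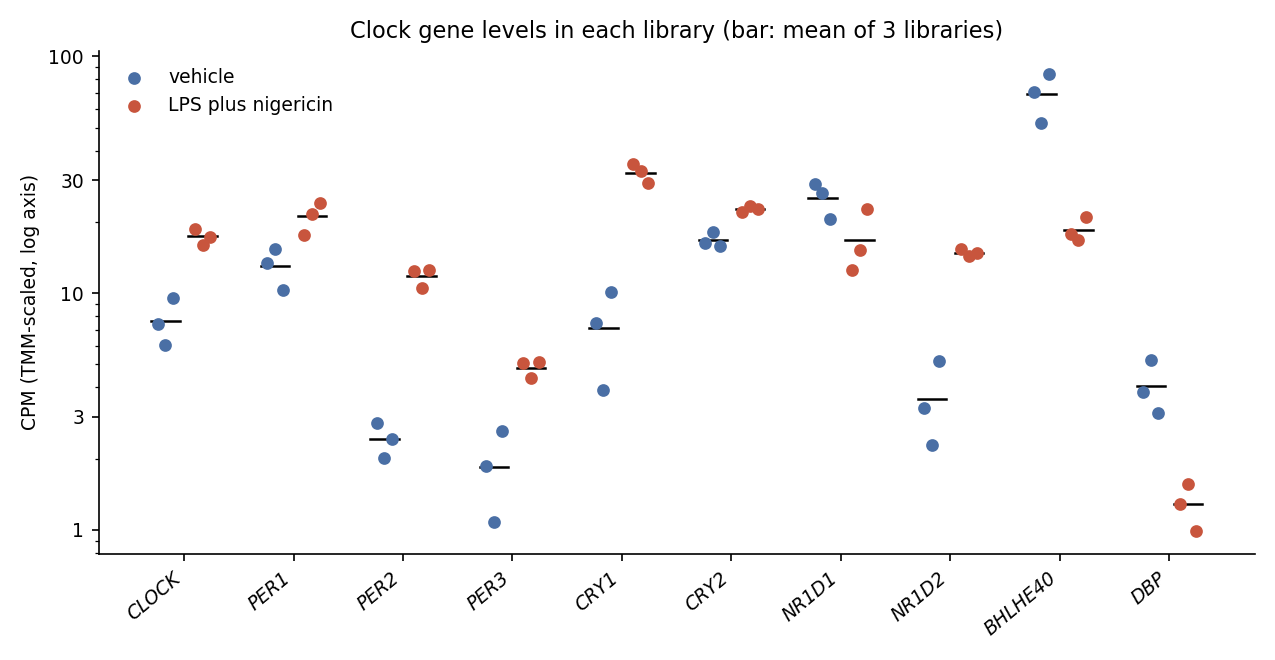
CPM of the 10 clock genes in each of 3 vehicle and 3 treated libraries on a log axis, with points for libraries and bars for group means. The treated points lie above all vehicle points for CLOCK, the PER and CRY genes and NR1D2, and below them for BHLHE40 and DBP. For NR1D1, 2 of the 3 treated points lie below the vehicle points and 1 lies within their range.

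PER2, which encodes a core repressor and a scaffold of the repressor complex, had the smallest p-value of the 10. It was at 2.84, 2.02 and 2.41 CPM in vehicle libraries 1 to 3 and at 12.4, 10.5 and 12.5 CPM in treated libraries 1 to 3. All treated values were more than 3 times any vehicle value, and each group was tight. PER2 rose 4.86-fold, with group means going from 2.42 ± 0.409 to 11.8 ± 1.15 CPM (log2 fold change 2.28 with an SE of 0.193, edgeR adjusted p = 1.13e-04). The gene spans 238244038 to 238290102 on the minus strand of chromosome 2 in GENCODE 29 (GRCh38) and shares 188 exon bases with ENSG00000225057, which was at 0.0329 CPM or below.

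PER1, the PER gene best known as an immediate early gene, changed less. Its values were 13.3, 15.4 and 10.3 CPM in vehicle and 17.7, 21.7 and 24.1 CPM after treatment. The lowest treated library stood just above the highest vehicle library. PER1 rose 1.62-fold, with group means going from 13.04 ± 2.56 to 21.1 ± 3.26 CPM (log2 fold change 0.70 with an SE of 0.192, edgeR adjusted p = 0.0157), and the call was lost when vehicle library 1 or treated library 2 or 3 was left out (edgeR adjusted p = 0.0516, 0.0524 and 0.0704). It lies on chromosome 17 (8140472 to 8156506, minus strand) and shares 78 exon bases with MIR6883 and 30 with ENSG00000263620, which were at 0.236 CPM or below.

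PER3, a PER family member that is less essential to the rhythm, was the least abundant PER gene per kilobase of exon. It was at 1.86, 1.08 and 2.61 CPM in vehicle and at 5.05, 4.37 and 5.12 CPM after treatment. The vehicle libraries differed more among themselves than the treated ones did, and the groups did not overlap. PER3 rose 2.61-fold (log2 fold change 1.39 with an SE of 0.315, edgeR adjusted p = 0.00685). On chromosome 1, where it spans 7784320 to 7845177 on the plus strand, 868 exon bases are shared with UTS2 on the other strand, which had no count in 5 of the 6 libraries. It shares 482 with an antisense gene at 0.0907 CPM or below.

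CRY1 and CRY2 encode the cryptochromes, the strongest repressors of CLOCK and BMAL1. CRY1 was at 7.48, 3.88 and 10.1 CPM in vehicle and at 35.1, 32.7 and 29.1 CPM after treatment. Vehicle library 2 was low and vehicle library 3 high, yet every treated value was above both. CRY1 rose 4.51-fold, with group means going from 7.16 ± 3.12 to 32.3 ± 3.05 CPM (log2 fold change 2.17 with an SE of 0.316, edgeR adjusted p = 9.44e-04). CRY2 was at 16.3, 18.1 and 15.8 CPM in vehicle and at 22.0, 23.4 and 22.7 CPM after treatment. Both groups were tight and close together. CRY2 rose 1.35-fold (log2 fold change 0.44 with an SE of 0.125, edgeR adjusted p = 0.0186), and the call was lost without vehicle library 1 or any one of the treated libraries (edgeR adjusted p = 0.0506 to 0.0833). CRY1 lies on chromosome 12 (106991364 to 107093829, minus strand) and CRY2 on chromosome 11 (45847118 to 45883248, plus strand). CRY1 shares 94 exon bases with the antisense gene ENSG00000257548, not analysed here.

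CLOCK, the activator and partner of BMAL1, was at 7.38, 6.06 and 9.52 CPM in vehicle and at 18.7, 16.0 and 17.3 CPM after treatment. Without a correction for transcript properties it rose 2.27-fold (log2 fold change 1.18 with an SE of 0.191, edgeR adjusted p = 0.00151), with no overlap between groups. In a fit with per-library offsets for GC content and transcript length its value was -0.014 (with an SE of 0.108, edgeR adjusted p = 0.924), so the rise was not seen there. CLOCK spans 55427903 to 55547138 on the minus strand of chromosome 4, has the lowest GC content of the 10 genes (37.2%) and shares 76 exon bases with TMEM165, which was at 39.3 ± 10.9 and 54.8 ± 1.91 CPM (log2 fold change 0.48, edgeR adjusted p = 0.0689), and 27 with the antisense gene ENSG00000272969, at 0.192 CPM or below.

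The REV-ERB genes, whose receptors repress BMAL1, differed from each other. NR1D2 was at 3.28, 2.28 and 5.18 CPM in vehicle and at 15.4, 14.3 and 14.7 CPM after treatment. Its treated libraries lay close together and far above the vehicle ones. NR1D2 rose 4.14-fold (log2 fold change 2.05 with an SE of 0.286, edgeR adjusted p = 7.80e-04). NR1D1 was at 28.9, 26.5 and 20.5 CPM in vehicle and at 12.5, 15.3 and 22.7 CPM after treatment. Treated library 3 lay within the vehicle range and the other treated libraries below it. The log2 fold change of NR1D1 was -0.59 (SE 0.238, edgeR adjusted p = 0.0670), with a direction that turned to 0.049 with the GC and length offsets. DESeq2 and limma-voom called it lower (adjusted p = 0.0278 and 0.0495), as did edgeR without treated library 3 (-0.86, adjusted p = 0.0190) or vehicle library 3 (-0.73, adjusted p = 0.0289).

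NR1D1 lies on chromosome 17 (40092787 to 40100725, minus strand), and 263 of its exon bases (9.49%) overlap THRA, the thyroid hormone receptor alpha gene on the other strand. THRA fell from 25.2 ± 2.66 to 18.0 ± 0.866 CPM (log2 fold change -0.48, edgeR adjusted p = 0.0167), a call lost with the GC and length offsets (-0.058, adjusted p = 0.756) and when vehicle library 1 or treated library 1 or 3 was left out. Whether counting used strand is not given in the sources used here, so reads of the shared stretch cannot be assigned to either gene, and their part in the NR1D1 value was not tested. NR1D2 is on chromosome 3 (23945260 to 23980618, plus strand) and shares no exon base with another annotated gene.

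BHLHE40, the E-box repressor DEC1, was the most abundant member in vehicle per kilobase of exon. It was at 70.6, 52.4 and 84.5 CPM in vehicle and at 17.8, 16.8 and 20.9 CPM after treatment. The lowest vehicle library stood far above the highest treated one. BHLHE40 fell 3.74-fold, from 69.2 ± 16.1 to 18.5 ± 2.13 CPM (log2 fold change -1.90 with an SE of 0.193, edgeR adjusted p = 2.14e-04), and stayed between -2.07 and -1.74 under every alternative run. It lies on chromosome 3 (4979116 to 4985323, plus strand) and shares 4 exon bases with its antisense gene BHLHE40-AS1, which was at 0.405 CPM or below.

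DBP, the D-box activator, was at 3.83, 5.22 and 3.13 CPM in vehicle and at 1.28, 1.57 and 0.988 CPM after treatment. The groups did not overlap. DBP fell 3.17-fold (log2 fold change -1.66 with an SE of 0.280, edgeR adjusted p = 0.00181), from 4.06 ± 1.06 to 1.28 ± 0.291 CPM. It lies on chromosome 19 (48630030 to 48637438, minus strand), where 661 of its annotated exon bases (10.1%) overlap SPHK2, the sphingosine kinase 2 gene on the other strand. SPHK2 had more counts than DBP in every library and fell as well, from 57.1 ± 12.4 to 22.0 ± 2.68 CPM (log2 fold change -1.37, edgeR adjusted p = 6.58e-04). Whether SPHK2 reads entered the DBP count was not tested.

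**Figure D2:**
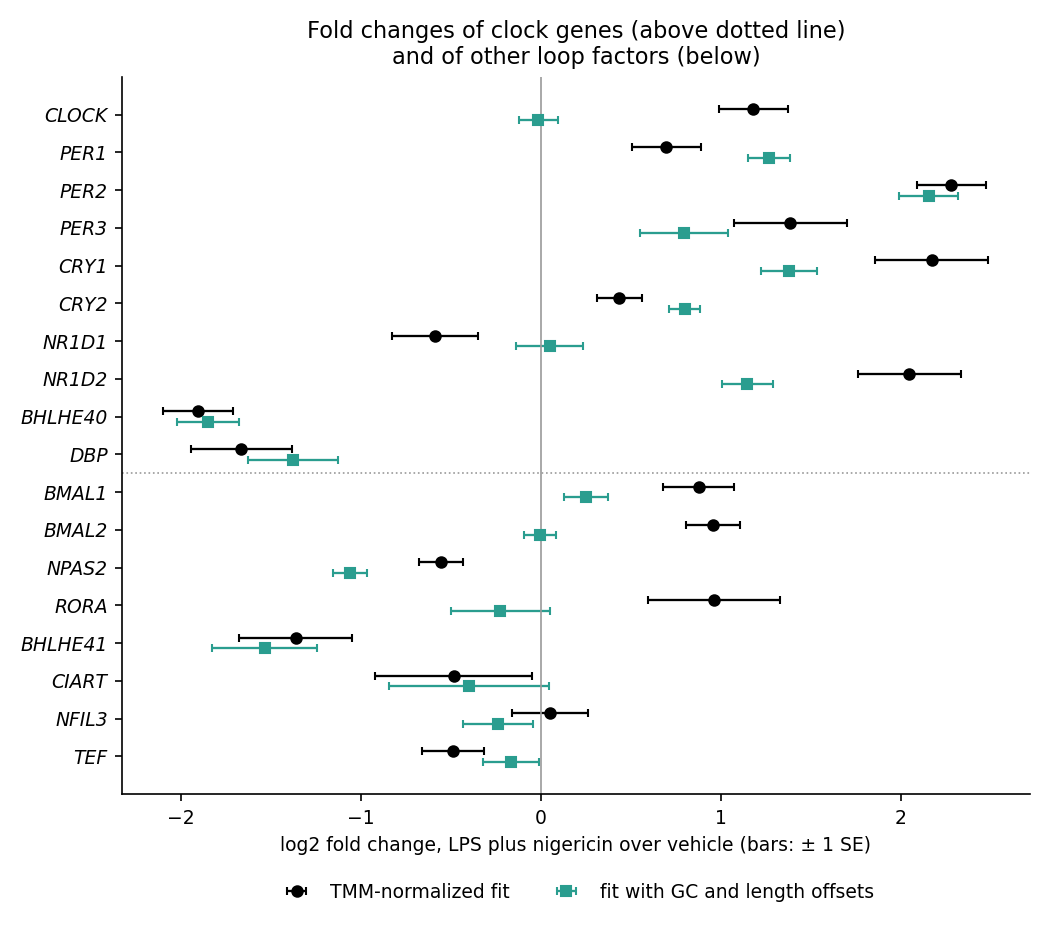
Log2 fold changes of the 10 clock genes, above the dotted line, and of 8 other loop factors with enough counts, below it, with bars of ± 1 SE, from the TMM-normalized fit (circles) and the fit with GC and length offsets (squares). CLOCK moves from 1.18 to -0.014 and NR1D1 from -0.59 to 0.049 between the fits, while PER2 (2.28 and 2.16) and BHLHE40 (-1.90 and -1.85) stay nearly in place.

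GC content of the transcripts separated some of these genes from others. CLOCK, CRY1 and NR1D2 belong to the GC-poorest quintile of tested protein-coding genes, of which 58.9% rose and 5.19% fell. Their direction was that of most such genes. PER1 and NR1D1 belong to the GC-richest quintile, of which 7.30% rose and 60.3% fell, so PER1 rose among genes that mostly fell. PER2, CRY2 and DBP lie in the quintile next to it, of which 15.3% rose and 44.3% fell, and PER3 and BHLHE40 in the middle one, of which 33.5% rose and 21.7% fell.

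The fit with offsets removes any trend with GC content or length, including one that the treatment caused, and its median over all tested genes was -0.11. It gave larger rises of PER1 (1.27) and CRY2 (0.80) and smaller ones of CRY1 (1.38), NR1D2 (1.15) and PER3 (0.80), all with edgeR adjusted p of 0.0251 or below. BHLHE40 was at -1.85 and DBP at -1.38, both called. In that fit 6 of the 10 genes were higher, where 22.2% of all tested genes were, and 2 lower, where 28.2% were, with CLOCK and NR1D1 not called.

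**Figure D3:**
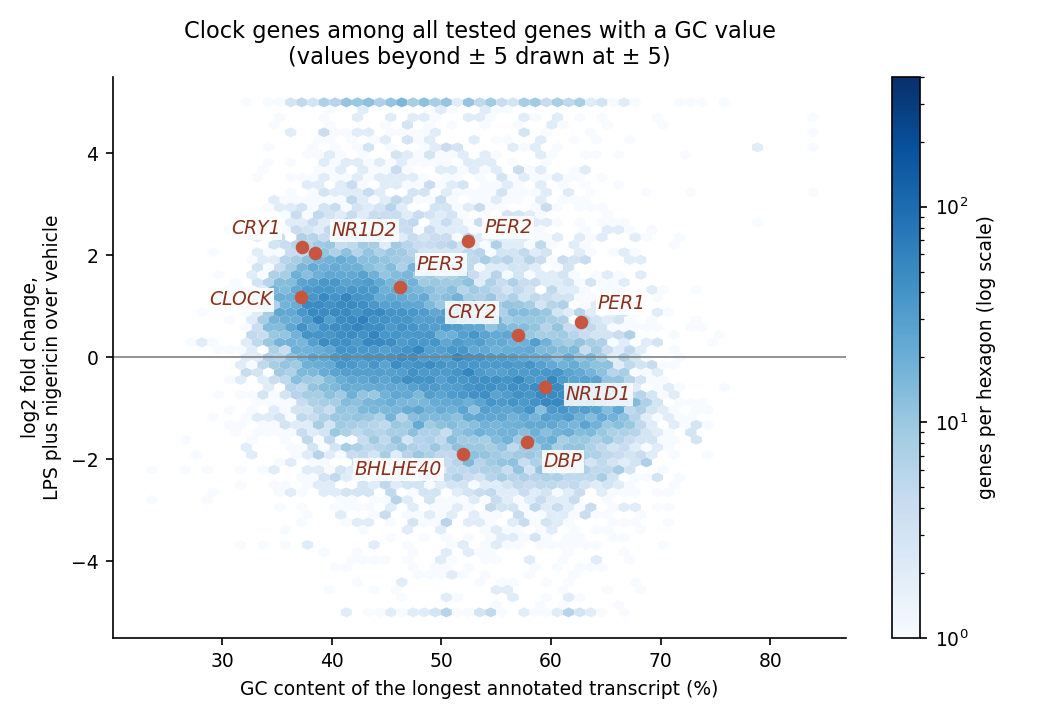
Log2 fold change against GC content (percent) of the longest annotated transcript, with all tested genes that have a GC value shaded by number and the 10 clock genes as points. CLOCK, CRY1 and NR1D2 lie in the GC-poor mass of genes above 0, whereas PER1 (62.7% GC, 0.70) and CRY2 (57.0%, 0.44) lie above 0 where most genes are below it.

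Levels of different genes were compared as CPM per kilobase of annotated exon. In vehicle BHLHE40 was highest at 18.0 ± 4.20, followed by NR1D1 at 9.12 ± 1.55, CRY2 at 2.70 ± 0.194 and PER1 at 1.86 ± 0.366. The ranges of these 4 genes did not overlap each other. CRY1 (1.41), CLOCK (0.651), DBP (0.620), NR1D2 (0.615), PER2 (0.352) and PER3 (0.228) came next, and each neighbour in this order overlapped the one before it. After treatment the order began with CRY1 at 6.38 ± 0.603, NR1D1 at 6.07 ± 1.90 and BHLHE40 at 4.82 ± 0.555, each overlapping the next in range.

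Below them came CRY2 at 3.66, PER1 at 3.02 and NR1D2 at 2.55, of which PER1 and NR1D2 overlapped, then PER2 at 1.72 and CLOCK at 1.48, which overlapped, then PER3 at 0.598 and DBP at 0.196, which stood apart. CRY1 thus moved from the fifth place to the first and BHLHE40 from the first to the third. These places carry no correction for GC content. Deviations of vehicle and treated libraries from the mean of all libraries correlated with it in opposite directions. The part of GC content in the order was not tested. Exon length is uncertain where transcripts differ. Per kilobase of GENCODE's principal transcript, DBP was at 1.82 in vehicle, in the sixth place, and at 0.575 after treatment, still the lowest, and CRY2 (5.40) and BHLHE40 (5.33) changed places after treatment.

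Log2 ratios of CPM between related genes were taken within each library, where gene length is constant, and compared over the 6 libraries with a two-sided exact permutation test, which cannot give a p below 0.1 for 3 against 3. The log2 ratio of NR1D1 to NR1D2 was 3.14, 3.54 and 1.99 in vehicle and -0.30, 0.091 and 0.63 after treatment, a difference of means of -2.75. That of CRY1 to CRY2 was -1.13, -2.22 and -0.65 in vehicle and 0.68, 0.48 and 0.36 after treatment, a difference of 1.84. The 2 groups stood apart in both pairs.

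The difference was -1.59 for PER1 to PER2, -0.81 for PER3 to PER2 and -1.76 for NPAS2 to CLOCK, which encode alternative partners of BMAL1. In 5 of the 7 pairs the groups did not overlap (exact permutation p = 0.1, adjusted p = 0.14 over 7 pairs). Of single tested genes, 35.0% stood apart as higher and 32.0% as lower. No such share was computed for ratios of other genes, so the count of pairs does not set the clock genes apart. None of the 7 pairs passed the threshold, which this test cannot reach. The difference was -0.46 for BHLHE40 to its relative BHLHE41 (exact permutation p = 0.2, adjusted p = 0.233) and 0.074 for BMAL2 to BMAL1 (exact permutation p = 0.7). From the fit with GC and length offsets, the differences were smaller for NR1D1 to NR1D2 (-1.10), CRY1 to CRY2 (0.58), PER1 to PER2 (-0.89), NPAS2 to CLOCK (-1.05) and BHLHE40 to BHLHE41 (-0.31). The difference was larger for PER3 to PER2 (-1.36) and turned sign for BMAL2 to BMAL1 (-0.26).

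**Figure D4:**
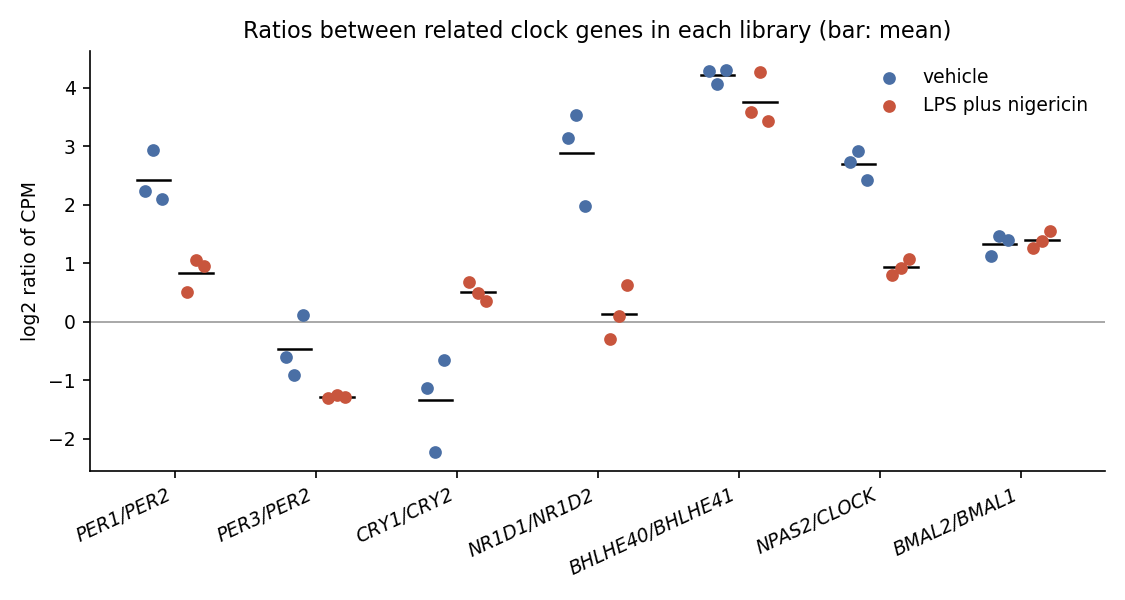
Log2 ratio of CPM between related clock genes in each library, with points for the 3 vehicle and 3 treated libraries and bars for group means. The groups stand apart in 5 of 7 pairs, furthest for NR1D1 to NR1D2 (means 2.89 and 0.14), and overlap for BHLHE40 to BHLHE41 and BMAL2 to BMAL1. No share of pairs standing apart was computed for other genes.

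Among the other factors of the loop, 11 listed genes gave 8 with enough counts, of which 2 rose (25%), 3 fell (37.5%) and 3 did not pass (median log2 fold change -0.21). Over all tested genes 28.9% rose and 26.4% fell, which is close to these shares. With the offsets 0 of the 8 rose and 2 fell, against 22.2% and 28.2% of all tested genes. The activator genes BMAL1, from 11.6 ± 2.59 to 21.3 ± 2.58 CPM, and BMAL2, from 28.7 ± 4.95 to 55.8 ± 2.70 CPM, had log2 fold changes of 0.88 and 0.96 and both rose (edgeR adjusted p = 0.00650 and 0.00129). With the GC and length offsets they were at 0.25 and -0.0032 and neither was called (adjusted p = 0.126 and 0.980), as for CLOCK. NPAS2, an alternative partner of BMAL1, fell from 48.5 ± 2.56 to 33.1 ± 2.98 CPM (log2 fold change -0.55, edgeR adjusted p = 0.00581), and by 1.06 with the offsets. BHLHE41 (DEC2), the relative of BHLHE40, fell from 3.67 ± 0.575 to 1.43 ± 0.529 CPM (log2 fold change -1.36, edgeR adjusted p = 0.00702). Both DEC genes therefore fell, and both did so in the fit with offsets (-1.85 and -1.53).

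TEF, an activator of the DBP family, fell by 0.49 on the log2 scale (edgeR adjusted p = 0.0420), a call lost under 5 other settings, the offsets among them (-0.17), and when vehicle library 1 or 3 or treated library 1 or 2 was left out. NFIL3, a repressor at D-boxes, was at 6.91 and 7.17 CPM, and its log2 fold change of 0.053 turned negative with library totals, with the offsets and when vehicle library 1 or treated library 3 was left out. RORA, an activator of BMAL1, was at 0.776 ± 0.328 and 1.52 ± 0.384 CPM (log2 fold change 0.96, edgeR adjusted p = 0.0539). It was called higher by DESeq2, limma-voom and the stricter filter and without vehicle library 3, but was at -0.23 with the offsets. CIART, a repressor of CLOCK and BMAL1, was at 0.375 ± 0.0652 and 0.268 ± 0.0294 CPM (edgeR adjusted p = 0.377). RORB and HLF had too few counts to be tested.

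Kinases and ubiquitin ligases set how long PER and CRY proteins last. The list of these genes also held deubiquitinase genes and the replication fork genes TIMELESS and TIPIN, which both rose. Of its 16 tested genes, 11 rose (68.8%, against 28.9% of all tested genes), 2 fell (12.5%, against 26.4%) and 3 did not pass (median log2 fold change 0.55). With the GC and length offsets 4 of the 16 rose and 2 of the 16 fell, against 22.2% and 28.2% of all tested genes. The share that rose was then near the background. FBXW11, which with its relative BTRC marks PER proteins for destruction, went up from 13.7 ± 4.81 to 29.8 ± 2.69 CPM (log2 fold change 1.12), and the deubiquitinase gene USP7, whose product acts on CRY proteins, from 80.4 ± 3.997 to 153 ± 10.6 CPM (0.93). With the offsets they were at 0.53 and 0.31, both called. CSNK1D, a casein kinase that phosphorylates PER proteins, fell from 267 ± 26.2 to 208 ± 7.70 CPM (-0.36), and SIAH2, a ligase for the REV-ERB proteins, from 22.9 ± 3.74 to 16.0 ± 2.83 CPM (-0.52). Both calls were lost with the offsets (-0.13 and -0.020), SIAH2's also when vehicle library 1 or 2 or treated library 1 or 3 was left out, and CSNK1D's without vehicle library 1 or any one of the treated libraries.

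Of 14 tested coactivators and corepressors that act with clock proteins, 9 rose (64.3%, against 28.9% of all tested genes), 2 fell (14.3%, against 26.4%) and 3 did not pass (median log2 fold change 1.03). With the offsets 7 of the 14 rose and 3 of the 14 fell, against 22.2% and 28.2% of all tested genes. SFPQ, which with NONO binds PER complexes, rose from 123 ± 27.4 to 816 ± 82.2 CPM (log2 fold change 2.73, edgeR adjusted p = 5.48e-05), and the acetyltransferase gene EP300 from 21.8 ± 6.70 to 108 ± 31.1 CPM (2.31). With the offsets these were 2.51 and 2.01. WDR5, a subunit of histone methyltransferases found with PER proteins, fell from 87.6 ± 3.996 to 50.7 ± 5.10 CPM (-0.79). Its fall was smaller with the offsets, at -0.42, and was called there too.

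Of 14 tested genes known as rhythmic outputs, 8 rose (57.1%, against 28.9% of all tested genes), 2 fell (14.3%, against 26.4%) and 4 did not pass (median log2 fold change 0.83). With the offsets 8 of the 14 rose and 1 of the 14 fell, against 22.2% and 28.2% of all tested genes. TFRC, the transferrin receptor, rose from 96.1 ± 11.5 to 301 ± 31.2 CPM (log2 fold change 1.65, or 0.82 with the offsets), and TSC22D3, which encodes the glucocorticoid-induced leucine zipper, from 5.90 ± 0.476 to 15.4 ± 1.52 CPM (1.39, or 1.61). CIRBP, a cold-inducible RNA-binding protein, fell from 122 ± 3.98 to 82.9 ± 2.19 CPM (-0.56), and POR, the P450 reductase, from 131 ± 18.6 to 90.7 ± 8.56 CPM (-0.53). With the offsets CIRBP was not called (-0.12) and POR was called in the other direction (0.20, edgeR adjusted p = 0.0341), a call that was lost when the replicate block was added (adjusted p = 0.0607).

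The PER genes can also be induced through the glucocorticoid receptor and cAMP signalling. Of 13 tested genes of these routes, 5 rose (38.5%, against 28.9% of all tested genes), 2 fell (15.4%, against 26.4%) and 6 did not pass (median log2 fold change 0.45). With the offsets 3 of the 13 rose and 4 fell, against 22.2% and 28.2% of all tested genes, so both shares were then near the background. The list held genes of the routes themselves, such as NR3C1, as well as induced genes. TSC22D3, named above as glucocorticoid-induced, was counted among the outputs and not here. The shares therefore do not show whether these routes were active. SIK1, a cAMP-induced kinase with a near-identical annotated copy (SIK1B) that makes its count uncertain, went up from 1.205 ± 0.676 to 4.47 ± 0.935 CPM (log2 fold change 1.89), and NR3C1, the glucocorticoid receptor, from 31.7 ± 5.76 to 70.4 ± 5.84 CPM (1.15). With the offsets SIK1 was at 2.19 and NR3C1 at 0.093, which was not called. CRTC1 and CRTC2, coactivators of CREB, fell by 0.59 and 0.46 on the log2 scale, and neither was called with the offsets (-0.19 and 0.19). The CRTC2 call was also lost without vehicle library 1 or any one of the treated libraries. Over the 5 lists together 35 of 65 tested genes rose (53.8%, against 28.9% of all tested genes) and 11 fell (16.9%, against 26.4%). With the offsets 22 of the 65 rose and 12 of the 65 fell, against 22.2% and 28.2% of all tested genes. Without vehicle library 1 or without treated library 1, 28 rose and 7 fell. Over all tested genes 4574 rose and 4034 fell without vehicle library 1, and 4341 and 4000 without treated library 1. With no library left out these were 5540 and 5070.

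The genes most like PER2 over the 6 libraries, by Pearson correlation of log2(CPM + 0.1), were the unnamed noncoding gene ENSG00000271344 (0.9992), TTC19 (0.9989), a mitochondrial protein gene, and FRS2 (0.9986), an adaptor of FGF receptors. Correlations this high are common here, since 2754 genes reached 0.95 with PER2 in libraries that differ by group. FRS2 rose, at 5.54 ± 1.02 and 32.2 ± 3.76 CPM (log2 fold change 2.54), as did TTC19, at 31.1 ± 1.65 and 59.1 ± 2.20 CPM (0.93), the latter not called with the offsets (0.19, edgeR adjusted p = 0.266). ENSG00000271344 rose from 0.475 ± 0.143 to 6.91 ± 0.558 CPM (3.85).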

How the data were processed

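RNA-seq libraries of T24 cells, 3 given vehicle and 3 given LPS plus nigericin, were grouped by their titles. The authors deposited raw counts per Ensembl gene, per the file headers, and hg38 is the build per the submitters' processing notes. For aligner, counter, annotation release and strand setting: not given in the sources used here. Columns were matched by library name, and 0 belonged to no sample. Symbols matched 37840 of 37871 identifiers.

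Genes passing filterByExpr (19170) were fitted with edgeR 4.0.16 in R 4.3.3 (TMM, robust quasi-likelihood, group only), with Benjamini-Hochberg adjustment over all of them at 0.05. Each standard error is the size of the log2 fold change divided by the root of F. Ratios were tested with scipy 1.17.1 in Python 3.11.15. Coordinates, exon length and GC content came from GENCODE 29 (GRCh38) and promoters from RefSeq. Scripts were tested on simulated data. Replicates of a group were not duplicates of one library: chi-square of their counts, per degree of freedom, was 22.6 to 187.

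Alternatives were RLE factors, library totals, DESeq2 1.42.0, limma-voom (limma 3.58.1), no count filter, a stricter filter (3 libraries at 1 CPM), a replicate block, loess offsets (span 0.3) for GC content and transcript length with and without that block, and leaving out each library. The members and the lists of other clock genes were chosen with earlier results of these data known. Named are all members and loop factors, the 2 largest called rises and falls of each other list at 1 CPM or more, the 3 genes most like the member with the smallest p, and genes sharing exon bases with a member; some genes that this rule names are not reported here. Other genes were named after their values were seen where they explain a term or mark a cell type.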

Additional observations from a re-analysis of the deposited data

How the results depend on the processing

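Of the 10 members, PER2, PER3, CRY1, NR1D2, BHLHE40 and DBP kept their direction and call under all 15 alternatives. The number called higher was 5 to 7 and lower 2 to 3 over the libraries left out in turn. Over the wider lists these were 28 to 39 and 7 to 10, and with GC and length offsets, with or without the replicate block, 22 genes were higher. Over all tested genes, 4341 to 6061 were called higher and 4000 to 5286 lower as the same libraries were left out. With the offsets 4262 of all tested genes were higher, or 4014 with the replicate block. With these offsets (first without, then with the replicate block) the direction reversed for CLOCK (-0.014 and -0.013), NR1D1 (0.049 and 0.022), BMAL2 (-0.0032 and -0.0025), RORA (-0.23 and -0.23), NFIL3 (-0.24 and -0.26), POR (0.20 and 0.20) and CRTC2 (0.19 and 0.19). NFIL3 also reversed with library totals (-0.0044) and without vehicle library 1 (-0.0079) or treated library 3 (-0.18), within a range of -0.18 to 0.18 over the libraries left out. The cause was not tested. The labels do not say that a replicate number marks a shared culture or day. Deviations of same-numbered libraries correlated at -0.023, 0.096 and -0.024, and 2 of 6 libraries correlated best with their own number. With 3 libraries a group, these values cannot decide whether same-numbered libraries were paired. With the replicate block 7 members were higher and 2 lower, as without it, and 5513 and 4895 of all genes were called against 5540 and 5070. Depth limits RORA, CIART and the untested RORB and HLF most. With 3 libraries a group, no exact permutation p can fall below 0.1.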

Other observations

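Genes with an E-box in their RefSeq promoter window did not as a body follow the PER genes. Of 1474 tested genes with CACGTG in a window, 32.5% rose and 29.3% fell (median log2 fold change 0.041), and of 944 with CACGTT, 32.9% rose and 26.6% fell (0.13), against 28.9% and 26.4% of all tested genes (0.0016). Of 89 with TTATGTAA 41.6% rose and 18.0% fell (0.42), of 21 with TTACGTAA 47.6% and 19.0% (0.36), of 20 with the RORE 40% and 20.0% (0.52), and of 439 with TGACGTCA 38.0% and 23.9% (0.20). The median GC content of these 4 groups was 45.7%, 46.4%, 45.6% and 47.9%, against 49.0% over all tested genes. All tested genes include ones that are not protein-coding, so this background is not matched to genes with a promoter window. These are descriptions with no test.

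The vehicle libraries also differed among themselves in the members. Vehicle library 2 was the lowest of the 3 for 6 of the 10 genes, where it was the lowest for 43.4% of all tested genes, and vehicle library 3 was the highest for 5, against 40.9%. Vehicle library 2 was also the highest for 3, against 38.5%, and vehicle library 3 the lowest for 4, against 37.5%. With 10 genes these counts do not set the members apart from all tested genes. CRY1 spanned 3.88 to 10.1 CPM and NR1D2 2.28 to 5.18 CPM across vehicle libraries that carry the same label, a spread of more than 2-fold within a group. Both genes are GC-poor, and both were lowest in vehicle library 2 and highest in vehicle library 3. The deviations of vehicle libraries 1 to 3 correlated with GC content at 0.503, 0.609 and 0.193. The part of GC content in this spread was not tested.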
